A study of Homo sapiens with 4 samples.

Results

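The genes described here encode the 3 enzymes that make serine, 6 enzymes that pass its carbon on through folate, and PCK2, the mitochondrial phosphoenolpyruvate carboxykinase. They were followed in A549, a cell line established from a human lung adenocarcinoma, kept for 48 h with 25 μmol/L dihydroberberine, with 2 μmol/L sunitinib, with both at these doses, or with neither. Dihydroberberine derives by reduction from berberine, a plant alkaloid, and sunitinib inhibits receptor tyrosine kinases. Total RNA of each condition was hybridised to 1 array, and all 4 conditions used the same parental line and growth medium. The labels name no vehicle for the untreated cells. The members were taken as every probe set, a group of short probes read together as 1 signal, that the platform annotation assigns to exactly 1 of the 10 symbols. This gave 35 probe sets of the 44988 that carry 1 symbol, and 10 genes of 18132. A further probe set annotated to both PHGDH and MZT2B was left out by that rule.

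Serine is built in the cytosol from the glycolytic intermediate phosphoglycerate, by the dehydrogenase PHGDH, the aminotransferase PSAT1 and the phosphatase PSPH. The serine hydroxymethyltransferases, SHMT1 in the cytosol and SHMT2 in mitochondria, move a carbon of serine onto tetrahydrofolate and release glycine. In mitochondria MTHFD2, a dehydrogenase and cyclohydrolase, and MTHFD1L, a formate-forming synthetase, turn that carbon into formate, while ALDH1L2 oxidises it to carbon dioxide with formation of NADPH. In the cytosol the trifunctional enzyme MTHFD1 takes formate up again for purine and thymidylate synthesis. PCK2 converts mitochondrial oxaloacetate into phosphoenolpyruvate, which can feed serine synthesis from below. Several of these genes are known targets of ATF4, the transcription factor of the amino acid and integrated stress response, and A549 carries a KEAP1 mutation that keeps NRF2, another regulator of serine genes, active.

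To show the sequence in front of these genes, the members' promoters were searched on both strands for 3 motifs. These were TGATGNAA, the core of the C/EBP-ATF response element read by ATF4, TGACNNNGC, the antioxidant response element read by NRF2, and CACGTG, the E-box read by MYC and related factors. The promoter windows, from 250 bases before to 50 bases after the start, came from RefSeq on GRCh38.p14 and were found for 7 of the 10 genes. Among 35116 windows of the same length, 3.62% held the C/EBP-ATF element, 13.3% the antioxidant element and 7.26% the E-box. Of the 7 genes, MTHFD1L held a C/EBP-ATF element in 3 of its 4 overlapping or alternative windows, whereas PHGDH, PSAT1, SHMT1 and PCK2 held none of the 3 motifs in theirs. The windows of the 3 genes with a match, and of PCK2, the gene with the largest difference, are shown 5′ to 3′ with the matches in capitals.
MTHFD1L (chr6:150866236-150866535, + strand): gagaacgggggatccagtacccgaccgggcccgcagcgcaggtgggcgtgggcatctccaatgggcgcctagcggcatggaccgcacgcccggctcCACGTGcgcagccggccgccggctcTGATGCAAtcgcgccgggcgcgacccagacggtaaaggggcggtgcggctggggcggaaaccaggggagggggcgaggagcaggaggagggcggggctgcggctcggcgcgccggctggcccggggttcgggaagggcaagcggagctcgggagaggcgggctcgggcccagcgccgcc
MTHFD2 (chr2:74198365-74198664, + strand): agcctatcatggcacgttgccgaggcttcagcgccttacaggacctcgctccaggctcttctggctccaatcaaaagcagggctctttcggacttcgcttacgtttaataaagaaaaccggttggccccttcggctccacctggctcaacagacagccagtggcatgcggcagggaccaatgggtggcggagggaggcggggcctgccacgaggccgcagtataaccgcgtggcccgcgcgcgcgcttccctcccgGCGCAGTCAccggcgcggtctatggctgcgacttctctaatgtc
MTHFD1 (chr14:64388103-64388402, + strand): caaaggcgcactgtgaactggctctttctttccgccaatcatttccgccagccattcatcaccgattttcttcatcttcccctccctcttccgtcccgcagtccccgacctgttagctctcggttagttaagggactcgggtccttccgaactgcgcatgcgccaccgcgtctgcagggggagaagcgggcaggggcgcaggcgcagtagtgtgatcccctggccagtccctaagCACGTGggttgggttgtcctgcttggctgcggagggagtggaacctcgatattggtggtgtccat
PCK2 (chr14:24094061-24094360, + strand): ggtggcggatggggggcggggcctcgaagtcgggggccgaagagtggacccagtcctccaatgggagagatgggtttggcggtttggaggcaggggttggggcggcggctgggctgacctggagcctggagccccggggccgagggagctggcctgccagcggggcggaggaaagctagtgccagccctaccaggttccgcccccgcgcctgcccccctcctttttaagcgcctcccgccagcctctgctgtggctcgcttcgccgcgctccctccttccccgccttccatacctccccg
In the MTHFD1L window the capitals mark an E-box that begins 154 bases before the start and the C/EBP-ATF element that begins 129 bases before it. The 3 matching windows overlap and hold this same element. In the others it begins 90 bases before the start or at base 25 after it. In MTHFD2 the capitals mark an antioxidant element on the opposite strand, just after the start, and in MTHFD1 an E-box that begins 15 bases before it. A match is a run of letters and not a measured site, and no match says only that these letters are not in this window.

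The deposited values are log2 signals, on which a difference of 1 is 2-fold. Each gene is read from its brightest probe set on average over the arrays. For the members the other probe sets are given beside it, and for most other genes they are not. A floor was set at log2 6.75, which is the middle value over all gene probe sets, and 10958 genes reached it on at least 1 array. With 1 array per condition no difference has a replicate check and no test was run, so "higher" and "lower" compare single arrays. The spread between probe sets of 1 gene, whose median SD was between 0.09 and 0.12 in the 5 comparisons over 5563 genes, is that of the probes and not of the cultures. The array medians lay between 6.73 and 6.76. The dihydroberberine array differed from untreated by -0.41 in the Alu control and by -0.71 to -0.57 in the 3 probe sets for 18S rRNA, whereas the combination array differed by 0.03 and by -0.26 to -0.16, and the part of this in the results was not tested. The epithelial keratins KRT8, KRT18 and KRT19 were above log2 13.39 on every array, and EPCAM and CDH1 lay under the floor on all 4. Of 11 measured markers of other cell types 6 lay under the floor on all arrays, PTPRC among them, and their summed signal was log2 10.45 with dihydroberberine, 10.13 with sunitinib, 9.99 with both and 10.71 untreated. Among them CD14, a monocyte receptor, read 6.75, 6.27 and 5.76 in the treated conditions and 8.82 in untreated cells, and its part in the results was not tested. In whole cultures, fewer cells of a type and less RNA per cell cannot be told apart.

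Across the 10 genes, PCK2 was at least 2-fold higher in each treated condition than in untreated cells, and no member was 2-fold lower. That is 1 of 10 members with dihydroberberine, where 0.849% of the 10958 genes were 2-fold higher, 1 of 10 with sunitinib, where 0.128% were, and 1 of 10 with both, where 0.885% were. The corresponding shares of 2-fold lower genes were 3.08%, 0.429% and 1.33%. After quantile normalization 122 genes were 2-fold higher and 249 lower with dihydroberberine, against 93 and 338 as deposited. Among the 9 members above the floor on all arrays, which leaves out ALDH1L2, 7 had a positive sign in each of the 3 comparisons. Of all 10958 genes, which include some under the floor on 1 or more arrays, 46.1%, 42.8% and 45.5% were positive. The median difference was 0.23, 0.36 and 0.18 over these 9, 0.21, 0.35 and 0.15 with ALDH1L2 at the floor, and that of all genes -0.02, -0.03 and -0.01. These comparisons share the untreated array. The members were chosen with earlier results of these data known. Member counts set beside those of all genes, here and below, therefore cannot show an excess. At 1.5-fold or more, PHGDH joined PCK2 with each single drug, which made 2 of 10 members where 4.1% of all genes were as much higher with dihydroberberine and 1.1% with sunitinib. The 2 members that were negative in each were SHMT1 and MTHFD1, the cytosolic folate enzymes.

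**Figure D1:**
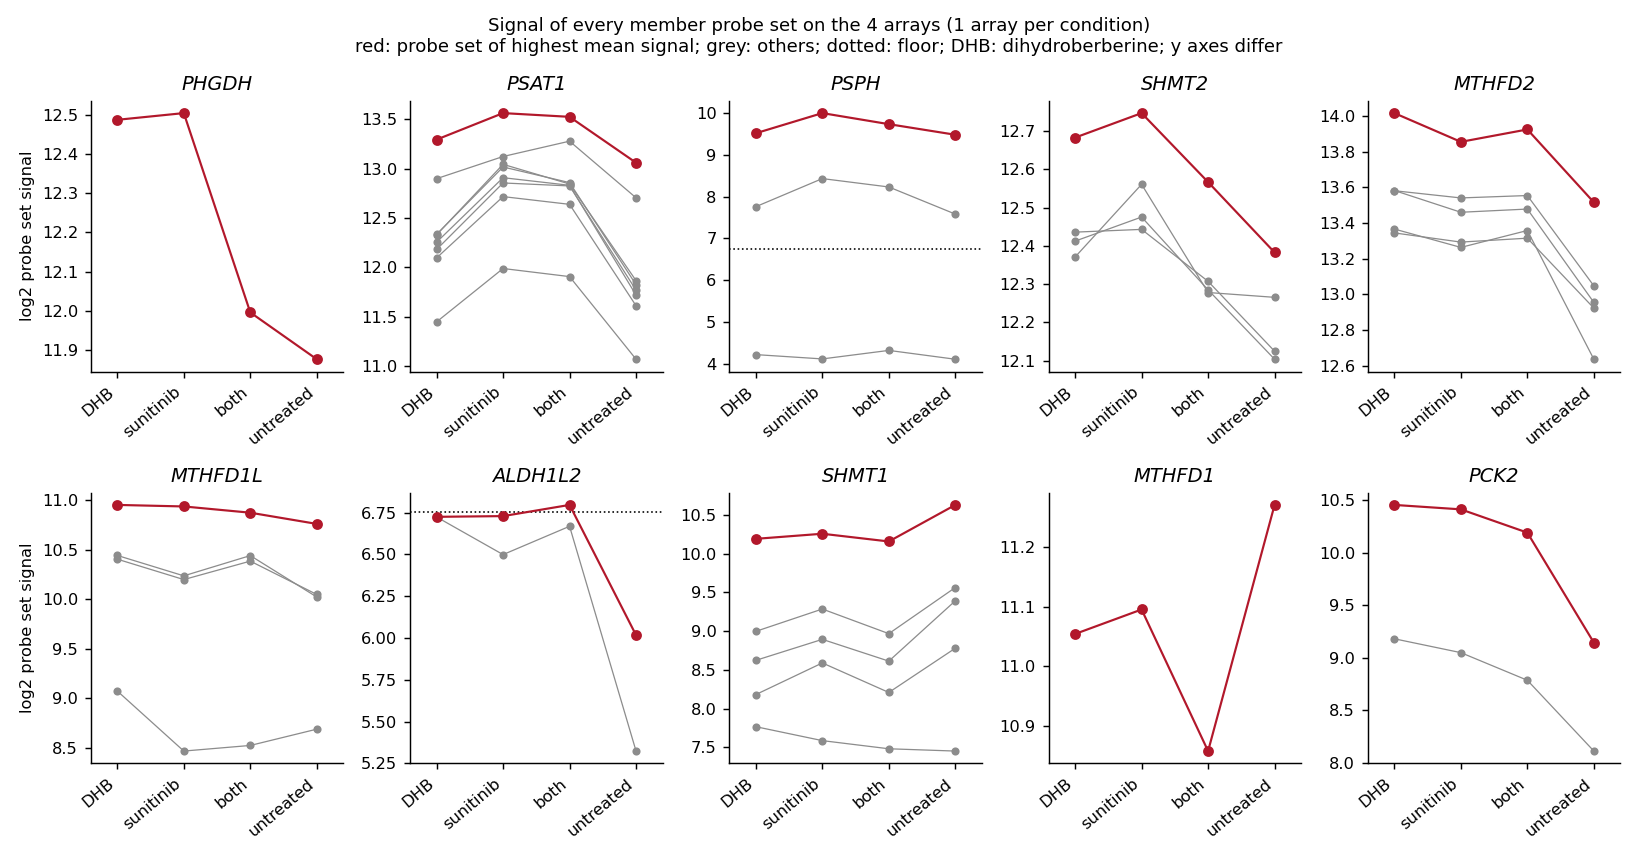
Log2 signal (y axes differ between panels) of all 35 member probe sets in cells given dihydroberberine, sunitinib, both drugs or neither, with 1 array per condition. Lines join the values of 1 probe set and red marks the probe set of highest mean signal. Both PCK2 probe sets had their lowest value in untreated cells, and 4 of the 5 SHMT1 probe sets had their highest value there.

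PCK2 had a log2 signal of 10.45 with dihydroberberine, 10.41 with sunitinib and 10.19 with both drugs, against 9.14 in untreated cells. Its second probe set read 9.18, 9.05 and 8.79 in the treated conditions and 8.11 untreated. Both probe sets thus gave the same order of conditions, with the treated arrays close together and untreated apart. The transcript was 2.48-fold higher with dihydroberberine, where 32 of the 10958 genes had a higher difference, 2.41-fold higher with sunitinib, where 5 did, and 2.06-fold higher with both, where 73 did. The second probe set gave smaller differences of 1.07, 0.94 and 0.67, and the mean of both gave 0.86 for the combination, which is under 2-fold. Added to the other drug, neither compound gave a higher signal still. The combination differed from sunitinib alone by -0.22 and from dihydroberberine alone by -0.26, and the second probe set gave -0.26 and -0.39.

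PHGDH, the entry enzyme of serine synthesis, was represented by 1 probe set. It read 12.49 with dihydroberberine and 12.50 with sunitinib, but 12.00 with both drugs, against 11.88 in untreated cells. The single drugs stood apart from the other pair of arrays. The differences from untreated were 0.61 (1.53-fold) with dihydroberberine, 0.63 (1.54-fold) with sunitinib and 0.12 (1.09-fold) with both. The combination was lower than sunitinib alone by a log2 difference of -0.51 and lower than dihydroberberine alone by -0.49. The probe set shared with MZT2B read 13.37, 13.42 and 13.24 in the treated conditions and 13.38 untreated, so it did not show this pattern.

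PSAT1, the aminotransferase that follows, had 8 probe sets, all above the floor and all higher than untreated in the 3 treated conditions. The brightest read 13.30 with dihydroberberine, 13.56 with sunitinib, 13.53 with both and 13.06 untreated. A dimmer one read 12.33, 13.02, 12.86 and 11.82 in the same order. Every probe set but 1 was highest with sunitinib alone. The brightest probe set gave a difference of 0.50 (1.42-fold) with sunitinib, while the median over the 8 was 1.10 (SD 0.32, range 0.42 to 1.19), and 5 of them were at least 2-fold higher. For the combination the brightest gave 0.47, the range was 0.47 to 1.11 and 4 probe sets passed 2-fold. With dihydroberberine the range was 0.19 to 0.54 and none did. Whether PSAT1 counts as 2-fold higher with sunitinib therefore depends on the probe set. The 2 probe sets with the highest signal gave the smallest differences for each treatment, as the plot of PSAT1 differences by signal shows. Both are marked _s_ in their names, as is a dimmer one that gave 1.11 with sunitinib. Sunitinib added to dihydroberberine gave a further 0.23 (range 0.23 to 0.64, positive in 8 of 8), whereas dihydroberberine added to sunitinib gave -0.04 (range -0.20 to 0.16).

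**Figure D2:**
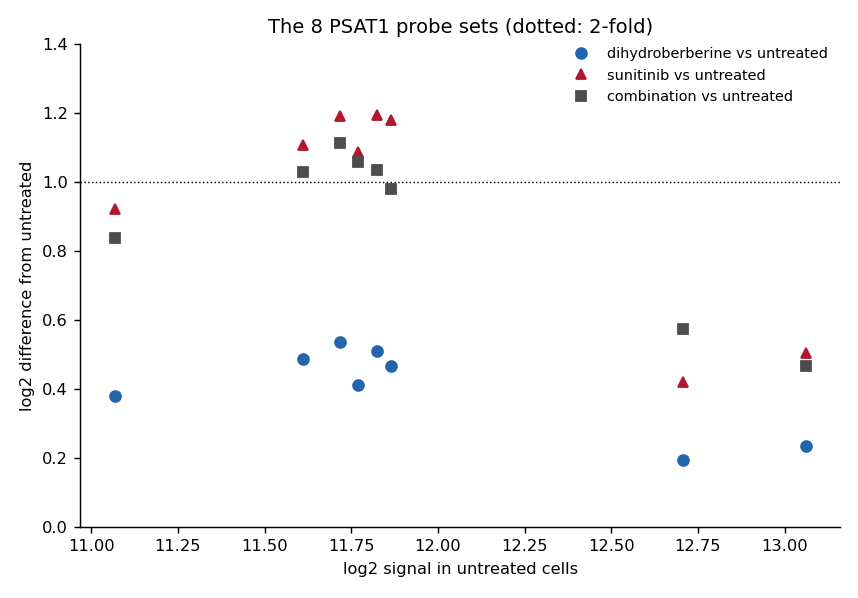
Log2 difference from untreated (y axis) of the 8 PSAT1 probe sets against their log2 signal in untreated cells (x axis), for dihydroberberine, sunitinib and both drugs. The 2 probe sets above log2 12.5 lie between 0.42 and 0.50 with sunitinib, and the 6 dimmer ones between 0.92 and 1.19.

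PSPH, which releases serine, differed from untreated mainly in the sunitinib arrays. Its brightest probe set read 9.52 with dihydroberberine, 10.00 with sunitinib and 9.74 with both, against 9.48 untreated. A second read 7.76, 8.43, 8.23 and 7.58 in that order, and the remaining one lay between log2 4.11 and 4.32, under the floor. Sunitinib alone was higher by 0.52 (1.43-fold) in the first and by 0.85 in the second, dihydroberberine alone by 0.04 and 0.18, and the combination by 0.25 and 0.65. Over the 3 serine enzymes the median difference was 0.23 with dihydroberberine, 0.52 with sunitinib and 0.25 with both.

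SHMT2, the mitochondrial hydroxymethyltransferase, read 12.68 with dihydroberberine, 12.75 with sunitinib and 12.57 with both, against 12.38 untreated. All 4 of its probe sets were higher than untreated in each treated condition, by 0.11 to 0.31, 0.30 to 0.37 and 0.01 to 0.18. These are small differences, with the combination closest to untreated.

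MTHFD2, which acts next, read 14.02, 13.85 and 13.92 in the same treated conditions and 13.52 untreated. Its 5 probe sets agreed in sign in all 3 comparisons, with differences of 0.42 to 0.73 with dihydroberberine, 0.34 to 0.63 with sunitinib and 0.39 to 0.72 with both. The combination differed from sunitinib alone by 0.01 to 0.09 and from dihydroberberine alone by -0.10 to -0.01 over these probe sets, so the 3 treated arrays lay close together and apart from the untreated one.

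MTHFD1L, which yields formate, read 10.95, 10.94 and 10.88 in treated cells and 10.76 untreated. Differences with dihydroberberine were 0.19 to 0.42 over 4 probe sets, all positive. With sunitinib 3 of the 4 were positive (-0.22 to 0.21), as with both drugs (-0.16 to 0.42). The exception in both was the dimmest probe set, at 9.07, 8.47 and 8.52 in treated cells and 8.69 untreated.

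ALDH1L2 lay at the floor. Its brighter probe set read 6.72, 6.73 and 6.80 in the treated conditions and 6.02 untreated, and passed the filter only through the combination array, while the other read 6.72, 6.50 and 6.67 against 5.32. Both read lowest in untreated cells, but the background controls of high G and C content (15 to 25 bases) stood at a median of 7.15, 6.99 and 6.95 on the treated arrays and 6.70 on the untreated one, and no fold is given for this gene.

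**Figure D3:**
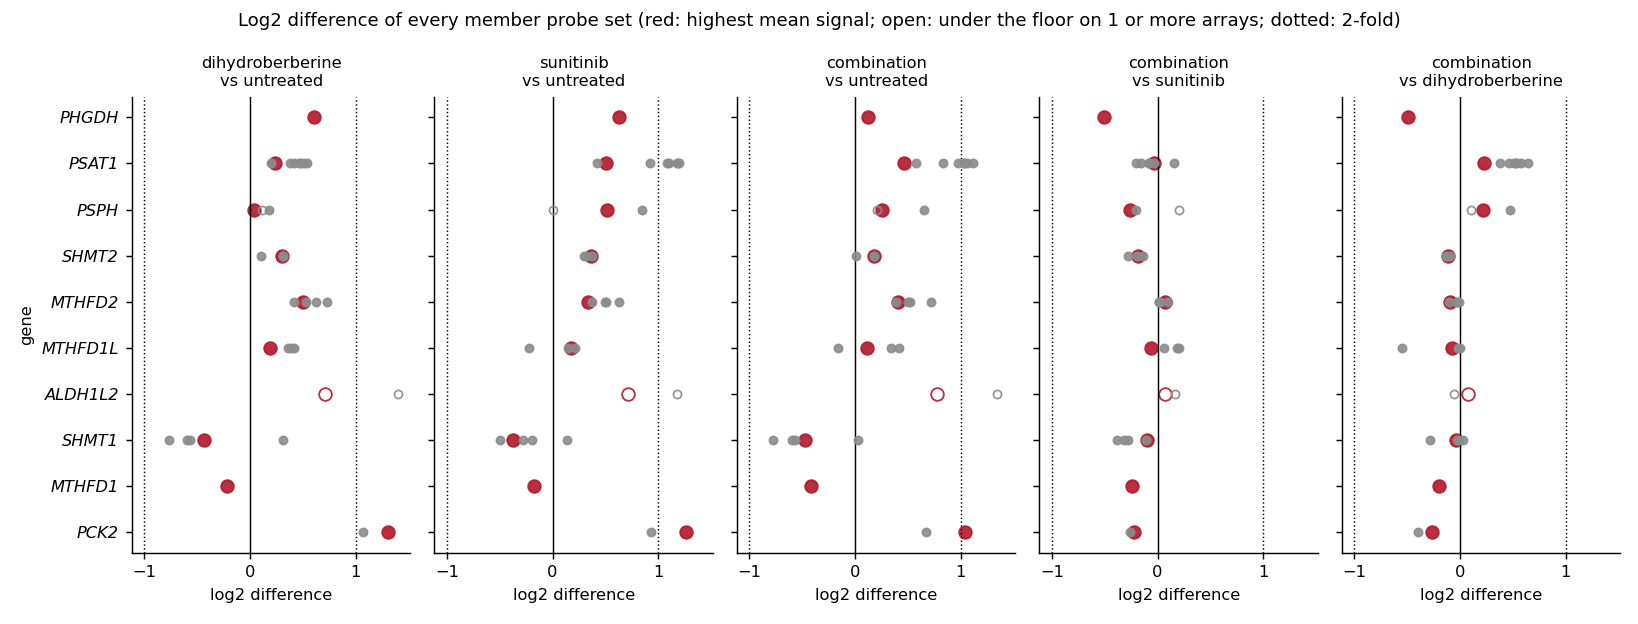
Log2 difference (x axis) of every member probe set in the 5 comparisons, by gene (y axis). Red marks the probe set of highest mean signal, open symbols a probe set under the floor on at least 1 array, and dotted lines 2-fold. The brightest PCK2 probe set lies past 2-fold in the 3 comparisons with untreated cells, the other at 1.07, 0.94 and 0.67, and both lie left of 0 in both comparisons of the combination with a single drug.

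The cytosolic folate enzymes read lower in treated cells. SHMT1 had 10.19 with dihydroberberine, 10.26 with sunitinib and 10.16 with both, against 10.63 untreated. The untreated array was the highest in 4 of its 5 probe sets. Those 4 gave differences between -0.77 and -0.44 with dihydroberberine, while the fifth, the dimmest, gave 0.31, and with sunitinib and with both drugs the fifth gave 0.13 and 0.03. MTHFD1 had 1 probe set, which read 11.05, 11.10 and 10.86 in the treated conditions and 11.27 untreated. Its differences were -0.22, -0.18 and -0.41, so the combination lay lowest. Of all genes, 18.3%, 11.2% and 11.0% had a lower difference than SHMT1, and 32.1%, 29.4% and 14.0% a lower one than MTHFD1. For these 2 genes the median difference was -0.33 with dihydroberberine, -0.27 with sunitinib and -0.44 with both. The 4 mitochondrial members above the floor on all arrays, PCK2 among them, had 0.40, 0.35 and 0.30. The 4 mitochondrial folate enzymes, with ALDH1L2 at the floor, had 0.25, 0.26 and 0.15. All 5 cytosolic members, which add the 3 serine enzymes, had 0.04, 0.50 and 0.12, so the contrast by compartment is limited to the folate enzymes. The contrast between SHMT2 and SHMT1, which catalyse the same reaction in different compartments, had the same sign in all 3 comparisons. No difference of either enzyme reached 2-fold in any probe set.

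The difference made by each drug could also be read in the presence of the other, in pairs of arrays that have none in common with the first. Of the 9 members above the floor on all arrays, dihydroberberine added to sunitinib left 1 positive and 8 negative, with a median of -0.18. Sunitinib added to dihydroberberine left 2 positive and 7 negative, with a median of -0.09. All 10958 genes, which include some under the floor on 1 or more arrays, had a median of 0.00 in both. No member reached 2-fold in either direction there. The shares of all genes that did were 0.584% higher and 0.0821% lower for dihydroberberine added to sunitinib, and 2.42% higher and 0.365% lower for sunitinib added to dihydroberberine.

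For most members the combination lay under the sum of the single drugs on the log2 scale. Its deviation from that sum was -1.53 for PCK2, with 5 of the 10958 genes lower, and -1.12 for PHGDH, with 16 lower. At 2-fold or more below the sum there were 2 of 10 members and 0.237% of all genes, and at 2-fold or more above it no member and 2.87% of all genes. The deviation was negative in 8 of the 9 members above the floor on all arrays, with a median of -0.30, and in 41.0% of the 9831 genes so measured, with a median of 0.07. SHMT2 followed at -0.48, MTHFD2 at -0.43, PSPH at -0.30, PSAT1 at -0.27 and MTHFD1L at -0.25. Each probe set of these 7 genes above the floor gave a negative deviation. MTHFD1, at -0.02, was close to additive, and SHMT1, at 0.34, was the exception, with 4 of 5 probe sets positive. The untreated array enters every deviation and both single-drug differences, so an error in it would move them together.

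**Figure D4:**
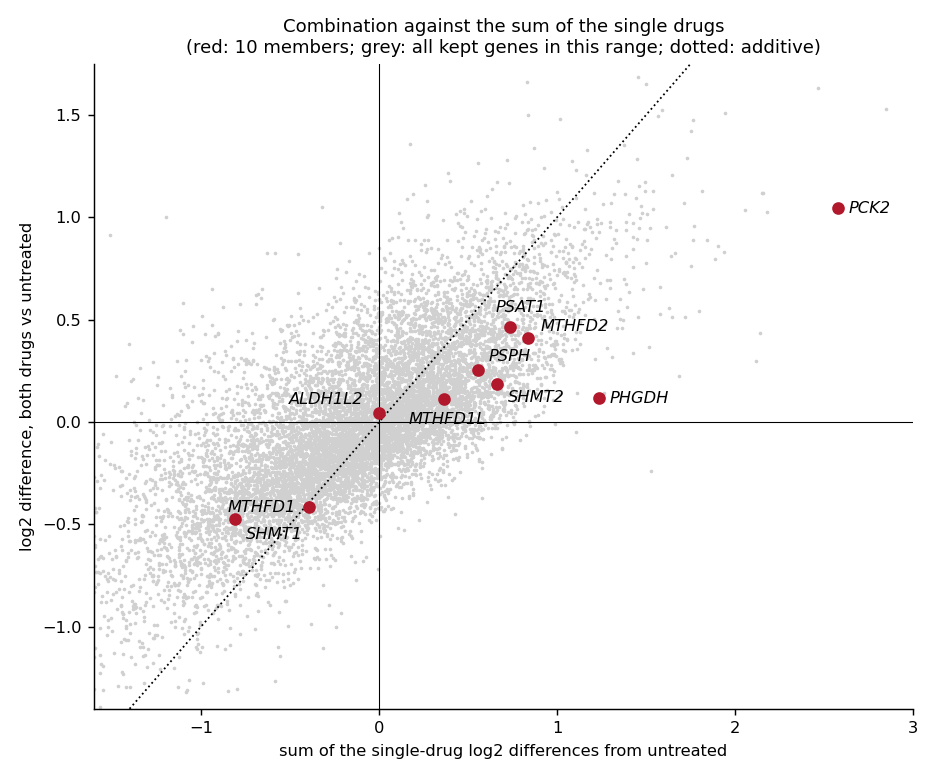
Log2 difference of the combination from untreated (y axis) against the sum of the log2 differences of the single drugs (x axis) for the 10 members (red) and the other kept genes within the axes (grey), with the dotted line marking equality. PCK2 and PHGDH lie farthest below the line, by 1.53 and 1.12, and SHMT1 lies above it.

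Genes around these enzymes were read from 8 lists, by the brightest probe set of each gene unless stated. Their sign counts stand beside 46.1%, 42.8% and 45.5% of all genes positive with dihydroberberine, sunitinib and both. The lists were chosen with earlier results of these data known, so their counts cannot show an excess. Other probe sets of some genes named below differed in size or sign. In these, TP73 reached 0.39 and AHCYL2 0.24 with dihydroberberine, and MTHFSD reached 0.32 with sunitinib. SFXN3 fell to -0.14 with both drugs, and ATF5 had 0.33 with sunitinib. The 16 genes of the ATF4 arm and its upstream kinases were split 8 to 8 in sign with dihydroberberine and with sunitinib, and 11 to 5 with both drugs. Their medians were 0.04, -0.0039 and 0.13, and 1 gene, DDIT3, was past 2-fold. ASNS, the asparagine synthetase, was higher by 0.86, 0.90 and 0.89 in the 3 treated conditions, and CEBPG, a dimerisation partner of ATF4, by 0.71, 0.81 and 0.95. DDIT3, the stress factor CHOP, was higher by 1.24 with dihydroberberine alone, but its difference was 0.02 with sunitinib and 0.14 with both, and PPP1R15A, a subunit of the eIF2 alpha phosphatase, had 0.95, -0.03 and 0.19. ATF5, another factor of that arm, had -0.23, 0.93 and 0.46, and VLDLR, a lipoprotein receptor, 0.12, 0.48 and 0.55. ATF4 itself, named here after its value was seen, read 14.20, 14.18 and 14.16 in treated cells and 14.05 untreated. With dihydroberberine 5 of these 16 genes rose by 1.5-fold or more, and 3 fell by as much. The 3 were CHAC1 at -0.78, EIF2AK3 at -0.69 and SESN2 at -0.67, also named after their values were seen. TRIB3, among the 5 that rose, had 0.78, 0.35 and 0.38 in the 3 treated conditions and is named likewise. None of the 16 fell that far with sunitinib or with both drugs, where 3 and 2 rose. Of all 10958 genes 4.1%, 1.1% and 6.26% were that much higher with dihydroberberine, sunitinib and both. The shares that were as much lower were 11.7%, 3.39% and 6.66%. Among other regulators of serine synthesis, 6 measured, NFE2L2, which encodes NRF2, had 0.34, 0.13 and 0.57, MYC -0.10, -0.27 and -0.05, and MDM2, the ubiquitin ligase of p53, -0.64, -0.14 and 0.58. EHMT2 and TP73 lay between -0.32 and -0.06, and none of the 6 reached 2-fold against untreated cells, while MDM2 signal in the combination was 2.32-fold that with dihydroberberine alone.

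Of 8 kept genes among the other folate enzymes, 4 were negative with dihydroberberine, 7 with sunitinib and 6 with both, and none reached 2-fold. The rest were positive, as were 46.1%, 42.8% and 45.5% of all genes. TYMS, which uses a folate-borne carbon to make thymidylate, had -0.73, -0.32 and -0.54, and QDPR, a pterin reductase, -0.71, -0.06 and -0.28. MTHFD2L, a mitochondrial relative of MTHFD2, had 0.54, 0.03 and 0.63. MTFMT, which formylates the mitochondrial initiator tRNA, had -0.45, -0.02 and 0.30, and MTHFSD and GGH lay between -0.30 and 0.05. Of the 10 purine genes 6 were negative with dihydroberberine, 8 with sunitinib and 6 with both. The positive ones were 4, 2 and 4, beside the same shares of all genes. PFAS, an enzyme of the purine ring pathway, had -0.69, -0.31 and -0.71, and PPAT, which starts that pathway, 0.36, 0.28 and 0.50. IMPDH1, IMPDH2 and PRPS1 lay between -0.65 and 0.05, and none of the 10 reached 2-fold.

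In the methionine cycle 9 genes were kept. In each treated condition 5 were negative and 4 positive, where 46.1%, 42.8% and 45.5% of all genes were positive. With dihydroberberine, where 3.08% of all genes were 2-fold lower, 1 of the 9 was. That gene, MAT2A, which makes S-adenosylmethionine, read 10.64 with dihydroberberine, 13.00 with sunitinib and 12.78 with both, against 12.77 untreated. The dihydroberberine array stood apart in all 5 of its probe sets, with differences between -2.14 and -1.25 from untreated. MTRR, which reactivates methionine synthase, had 0.50, 0.32 and 0.71, NNMT, a methyltransferase, 0.45, -0.86 and -0.24, and MTR, AHCY, AHCYL2 and CTH lay between -0.52 and 0.37. Among 11 folate and serine carriers, SLC25A32, which carries folate into mitochondria, read 8.07 with dihydroberberine, 9.13 with sunitinib, 9.26 with both and 8.97 untreated. SLC46A1, the proton-coupled folate transporter, was at least 2.14-fold lower with dihydroberberine, where it lay under the floor, and was the 1 carrier past 2-fold against untreated cells. Against dihydroberberine alone, the combination had 2.28-fold more SLC25A32 signal. SFXN1, a mitochondrial serine carrier, had -0.44, -0.50 and -0.42, and SFXN3 and SLC6A9 lay between 0.02 and 0.51. In glycine and serine breakdown, where 7 genes were kept and none reached 2-fold, GCAT, which cleaves a threonine product to glycine, had 0.02, -0.62 and -0.76, and DLD, a lipoamide dehydrogenase, 0.16, 0.24 and 0.46, while GLDC, SRR and AGXT lay between -0.13 and 0.47.

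The genes next to PCK2 in glycolysis and gluconeogenesis had mostly negative differences. Of 14 kept, 2 were positive in each treated condition, with sunitinib PKLR among them, which lay under the floor on 3 arrays, where 46.1%, 42.8% and 45.5% of all genes were. Their medians were -0.15, -0.22 and -0.30, and none reached 2-fold. PKM, the pyruvate kinase that consumes phosphoenolpyruvate, had -0.50, -0.45 and -0.74, and all 4 of its probe sets were negative in each comparison. PC, the pyruvate carboxylase that supplies oxaloacetate, had -0.27, -0.82 and -0.74 in its brightest probe set, but the other was positive. GOT1, the cytosolic aspartate aminotransferase, had -0.09, -0.36 and -0.61, ME2, a mitochondrial malic enzyme, 0.36, 0.08 and 0.43, and ENO2 and PGAM1 lay between -0.52 and -0.23. PCK1, the cytosolic counterpart of PCK2, lay under the floor on all 4 arrays, between log2 4.70 and 5.28.

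The genes most like PCK2 were sought by the Euclidean distance between the 3 log2 differences from untreated, over 9830 other genes above the floor on all 4 arrays. The nearest were WARS1, a tryptophanyl-tRNA synthetase, at a distance of 0.35, CSF2RA, a cytokine receptor subunit, at 0.43, ALDH2, a mitochondrial aldehyde dehydrogenase, at 0.50, ASNS at 0.60, and CYP1B1, a cytochrome P450, at 0.61. For PHGDH they were HLA-DRB1, an antigen-presenting chain, at 0.14, NFATC4, a transcription factor, at 0.22, AGBL4 at 0.22, OR4N2 at 0.23 and PLEKHG5 at 0.23. These distances rest on 4 arrays, and the order among close neighbours has no error estimate. The floor, log2 6.75, lay under the median of the high G and C background controls on the treated arrays (7.15, 6.99 and 6.95). How far each neighbour stood above the floor is not given here, and signals near it cannot be told from background.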

How the data were processed

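RNA of 4 A549 cultures was measured on 1 array each. The values deposited by the authors are log2 signals per probe set. Per the submitters' processing notes they come from Affymetrix Expression Console. Not given in the sources used here are its version, the summarization and any scaling of the arrays. Per the labels' protocols RNA was labelled with a GeneChip kit, whereas the design text speaks of Agilent arrays. The probe set names are those of an Affymetrix array. The log2 scale was inferred from their range, 3.01 to 15.4.

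The table held 49293 gene probe sets and 102 controls. The platform annotation gave 1 symbol for 44988 of them and several for 1832. For each gene the probe set with the highest mean was used, genes reaching the median of all gene probe sets on at least 1 array were kept, and lower values were raised to that floor before differences were taken. Groups came from the labels. With 1 array per group no test was run, and differences were counted at 2-fold. Counting was tested on simulated data. All 10 members are named. From each other list the 3 genes of largest difference against untreated in each treated condition, and any past 2-fold, are named. The 5 genes most like PCK2 and PHGDH are named. The members and lists were chosen with earlier results of these data known. Alternatives were other probe set choices, floors, scalings and a 1.5-fold size. Python 3.11.15 with pandas 2.3.3 and numpy 2.4.6 was used. The number of arrays limits the precision.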

Additional observations from a re-analysis of the deposited data

Results flagged for a closer look

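For 7 members a drug had differences of opposite sign without and with the other drug, in pairs of arrays with none in common. The difference between these effects was not tested, since each condition had 1 array. For dihydroberberine this held for 6 members, for sunitinib for 5, with 4 members in common, and among all kept genes the signs were opposite in 35.9% for dihydroberberine and 39.4% for sunitinib. PCK2 had 1.31 with dihydroberberine alone and -0.22 on top of sunitinib, and 1.27 with sunitinib alone and -0.26 on top of dihydroberberine, a difference between effects of -1.53. PHGDH had 0.61 and -0.51 for dihydroberberine and 0.63 and -0.49 for sunitinib, a difference of -1.12. For SHMT2 (-0.48) and MTHFD1L (-0.25) the signs were opposite for both drugs as well, for PSAT1 (-0.27) and PSPH (-0.30) for dihydroberberine, and for MTHFD2 (-0.43) for sunitinib. In MTHFD1L the sign for dihydroberberine on top of sunitinib rests on the brightest probe set, since the other 3 of 4 were positive. In PSPH the difference with dihydroberberine alone was 0.04, and it was -0.0035 when centred on the median of all probe sets. In MTHFD1L and MTHFD2 and, for dihydroberberine, in PSAT1 the value in the presence of the other drug was within 0.10 of 0.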

How the results depend on the processing

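PCK2 stayed at least 2-fold higher with each single drug under all 8 settings. Those that change only the floor or leave out probe sets marked _x_ or _s_ did not alter its value. For the combination the mean of all probe sets left 0 members 2-fold higher, and with the median of probe sets the 1 member was PSAT1 at 1.04, while PCK2 had 0.86. With sunitinib 2 members were 2-fold higher without probe sets marked _x_ or _s_ and with the median of probe sets above the floor, a setting chosen after seeing the data, where PSAT1 joined PCK2. At 1.5-fold there were 2 with dihydroberberine and 2 with sunitinib, PHGDH being the other. The floor at the 75th percentile left 1 member positive in the combination against sunitinib and removed ALDH1L2. The members' median was 0.34 with dihydroberberine under the mean of all probe sets, and -0.23 in the combination against sunitinib under the median of probe sets.

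Leaving out ALDH1L2, which stands at the floor and was kept in 6 of the settings, 42 of 45 differences of single members had the same sign under all 8 settings, and those of PSPH with dihydroberberine, MTHFD1L in the combination against sunitinib and SHMT1 in the combination against dihydroberberine did not. For these members the settings that change only the floor returned the main value. For PHGDH and MTHFD1, with 1 probe set each, only quantile normalization and centring could change it. Much of this agreement was thus fixed in advance. Deviations from additivity moved to -0.66 (no _x_ or _s_) and -0.62 (median) for PSAT1, -0.20 (mean) and -0.47 (quantile normalization) for PSPH, -0.39 (no _x_ or _s_) for SHMT2, -0.61 (median) for MTHFD2 and, with quantile normalization, -0.39 for MTHFD1L, -0.19 for MTHFD1 and -1.69 for PCK2. Without raising values to the floor, or with no floor, that of ALDH1L2 was -0.64. The cause of these shifts was not tested, except where fewer genes or probe sets enter by construction.

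Over all genes the settings gave 53 to 122 genes 2-fold higher and 141 to 400 lower with dihydroberberine (93 and 338 in the report), 8 to 26 and 26 to 67 with sunitinib (14 and 47), 39 to 143 and 85 to 174 with both (97 and 146), 31 to 84 and 4 to 14 for the combination against sunitinib (64 and 9), and 76 to 322 and 23 to 50 against dihydroberberine (265 and 40). No paired analysis was possible because each condition had 1 array. Signals near the floor, as for ALDH1L2, cannot be told from background.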
